A study of Danio rerio with 4 samples.

Results

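Fatty acid oxidation and its nuclear receptor regulators were followed through 34 genes of the zebrafish heart, taken by gene symbol from a fixed list. That list was chosen with earlier results of these data known, so its counts and medians are a description only. Of the 34, 33 had a row within the authors' deposited table of 14962 genes, and all 34, with cd36 added by its gene ID, were found among the 31462 genes of the count libraries. Adult zebrafish of the Ekkwill strain, with no transgene or mutation named in the labels, received vehicle or alfacalcidol, a synthetic vitamin D analog that becomes the active hormone after hydroxylation in the liver. They were injected once a day over 3 days, and tissue labelled as heart was collected 24 hours after the last dose. Each group had 2 libraries, and the labels do not say whether these came from separate fish or from pools, so the p-values computed from the counts cover only the spread between these libraries.

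The heart of an adult vertebrate draws much of its energy from fatty acids. Long-chain fatty acids are bound in the cell, activated to acyl-CoA and carried into mitochondria as carnitine esters, and beta-oxidation then shortens them stepwise while passing electrons to the respiratory chain. Peroxisome proliferator-activated receptors (PPARs) are nuclear receptors that bind lipids, pair with retinoid X receptors and switch on many genes of this route, helped by the coactivators that ppargc1a and ppargc1b encode.

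The series holds the data in 2 forms that differ in their tissue markers and are therefore described apart. Heart troponin T, tnnt2a, stood at 7568 CPM (counts scaled to the library total) within the authors' deposited table and at 9.40 to 11.4 CPM in the 4 libraries. The fast skeletal myosin light chain gene mylpfa stood at 3.68 CPM within the authors' deposited table and at 4495 to 5697 CPM in the libraries, so the libraries' markers go against their heart label. Library totals were between 31427486 and 39572163 counts. For each gene the authors' deposited table lists the fold change on the log2 scale, the mean level and p-values, with no values per library and with neither its samples nor its numerator named. The gene cyp24a1, a known vitamin D receptor target, encodes the hormone's degrading hydroxylase. It has a log2 fold change of 1.53 (adjusted p 8.19e-05) at a low level, 3.69 CPM, within the authors' deposited table. Positive values are therefore read as higher with alfacalcidol. Every direction below rests on that reading.

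In the authors' deposited table, 2 of the 3 genes for the mitochondrial entry enzyme of long-chain fatty acids were lower. So were 2 of the 6 coactivator and receptor genes. An uncoupling protein gene, whose locus overlaps that of another, was higher. Of 33 members, 4 passed an adjusted p of 0.05 (Benjamini-Hochberg, edgeR, per the submitters' processing notes) toward lower values and 1 toward higher values within the authors' deposited table. The 4 lower were cpt1b, cpt1ab, ppargc1a and pparaa, and the higher was ucp3. Among all 14962 genes of the authors' deposited table, the share called lower was 9.22%, higher 10.9% and in either direction 20.1%, so the members' called share of 15.2% was below that of the table. The members' median log2 fold change was -0.10 within the authors' deposited table, against 0.01 over all genes. Of the 33, 22 (66.7%) had a negative value, against 49.0% of all genes. With a minimum of 2-fold added, 1 of 33 members, cpt1b, was called within the authors' deposited table, where 8.43% of all genes were, and at an adjusted p of 0.1 there were 7, against 25.4%. Most values were small: 20 of 33 members (60.6%) and 46.6% of all genes lay within 0.25 of zero on the log2 scale within the authors' deposited table. Of the 33 members, 31 stood above the median level of all genes there, 10.5 CPM. The part of level in the small values and in the called share was not tested. In RNA of a whole organ, fewer cells of a type and less RNA per cell cannot be told apart.

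**Figure D1:**
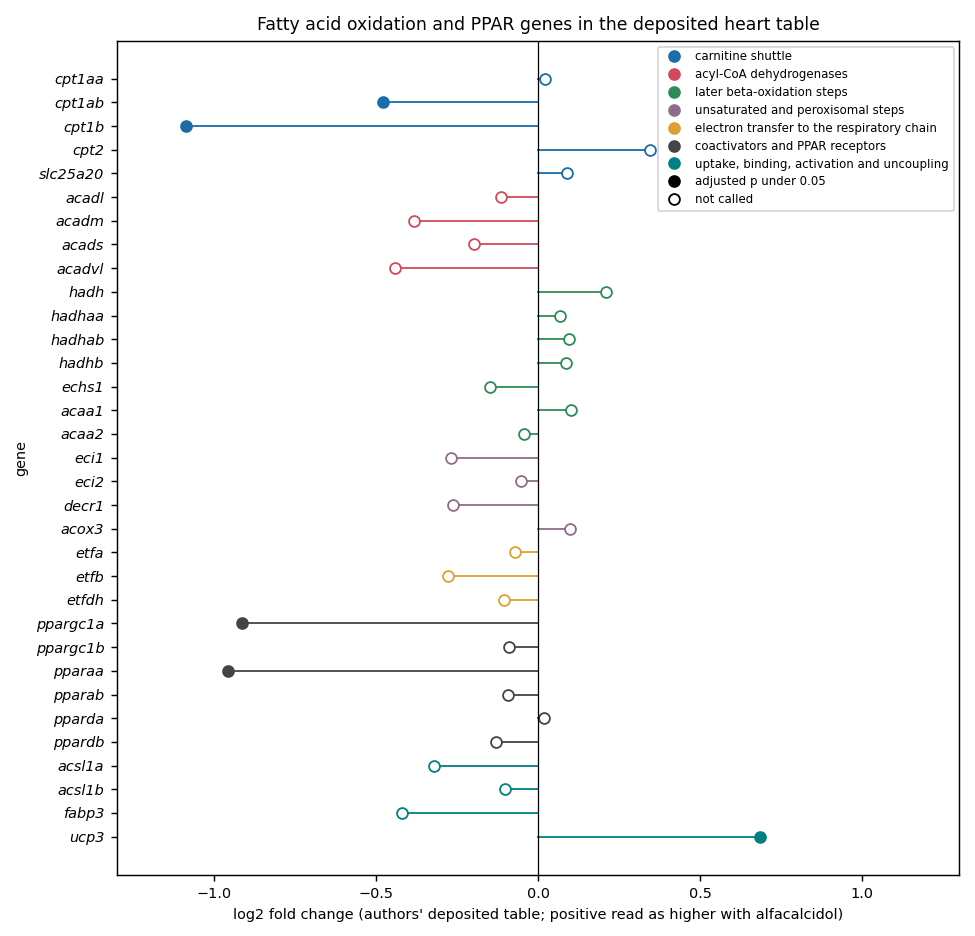
The log2 fold change of each of the 33 members within the authors' deposited table is plotted by gene, coloured by role, with filled points for an adjusted p under 0.05. The 4 filled points on the left are cpt1b, cpt1ab, ppargc1a and pparaa, between -1.09 and -0.48, and ucp3 is the filled point on the right at 0.68.

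Of the 5 carnitine shuttle genes, 2 were called within the authors' deposited table, where 20.1% of all genes were, and both were lower. Carnitine palmitoyltransferase I, which makes acylcarnitine at the outer mitochondrial membrane and is the controlled entry step of the pathway, is encoded by cpt1b, cpt1aa and cpt1ab. The muscle form cpt1b (chromosome 18, 8388901 to 8409547, GRCz10) fell 2.12-fold within the authors' deposited table, with a log2 fold change of -1.09, an adjusted p of 2.24e-06 and a mean level of 122.0 CPM. The liver-type gene cpt1ab (chromosome 25, 23494442 to 23546729, GRCz10) fell 1.39-fold within the authors' deposited table, with a log2 fold change of -0.48 (adjusted p 0.0371) at 400.3 CPM. Its paralog cpt1aa had a log2 fold change of 0.02 (adjusted p 0.967) within the authors' deposited table, at 17.03 CPM. The later shuttle genes had positive values without a call: cpt2, whose enzyme regenerates acyl-CoA inside the mitochondrion, stood at a log2 fold change of 0.34 (adjusted p 0.168) within the authors' deposited table. The translocase gene slc25a20, which exchanges acylcarnitine for carnitine across the inner membrane, had a log2 fold change of 0.09 (adjusted p 0.804) within the authors' deposited table.

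None of the 18 genes for beta-oxidation enzymes and electron carriers passed the test within the authors' deposited table, where 20.1% of all genes did. All 4 acyl-CoA dehydrogenase genes, which catalyse the first oxidation at successive chain lengths, had negative log2 fold changes within the authors' deposited table. These were -0.44 for acadvl (very long chains, adjusted p 0.0691), -0.38 for acadm (medium chains, 0.110), -0.199 for acads (short chains, 0.518) and -0.12 for acadl (long chains, 0.726) within the authors' deposited table. The 7 genes for the later steps lay close to zero, from -0.15 for the hydratase gene echs1 to 0.21 for the hydroxyacyl-CoA dehydrogenase gene hadh within the authors' deposited table. Among them were the subunits of the mitochondrial trifunctional protein, with log2 fold changes of 0.07 for hadhaa, 0.10 for hadhab and 0.09 for hadhb within the authors' deposited table. The thiolase genes acaa1, peroxisomal in mammals, and acaa2, mitochondrial, had values of 0.10 and -0.04 within the authors' deposited table. Loci of hadhaa and hadhb overlap by 37054 bases on chromosome 20 in the coordinates of the authors' deposited table, so reads of these genes may have been shared between them.

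Auxiliary enzymes and electron carriers were likewise without a call. Isomerase genes eci1 and eci2 and the reductase gene decr1, needed for unsaturated fatty acids, had log2 fold changes of -0.27, -0.05 and -0.26 within the authors' deposited table. The eci2 locus overlaps that of the gene tubb6 (55.8 CPM) by 6407 bases, so reads may have been shared there too. The peroxisomal oxidase gene acox3, which acts on branched chains in mammals, stood at 0.10 within the authors' deposited table. Electron transfer flavoprotein carries electrons from the dehydrogenases to the respiratory chain; its genes etfa and etfb and the gene of its oxidoreductase, etfdh, had log2 fold changes of -0.07, -0.28 and -0.11 within the authors' deposited table. Adjusted p-values of these 7 genes ran from 0.304 to 0.886 within the authors' deposited table.

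Of the regulators, a single member of each of the coactivator and PPAR alpha pairs was called. The coactivator gene ppargc1a (chromosome 7, 70128523 to 70219243, GRCz10), known for promoting mitochondrial biogenesis and oxidative metabolism, fell 1.88-fold within the authors' deposited table, with a log2 fold change of -0.91 (adjusted p 2.19e-05) at 74.9 CPM. Its relative ppargc1b had a log2 fold change of -0.09 (adjusted p 0.813) at 128.3 CPM within the authors' deposited table. The receptor gene pparaa (chromosome 4, 18620563 to 18663699, GRCz10) fell 1.94-fold within the authors' deposited table, with a log2 fold change of -0.96 (adjusted p 0.00114). The level of pparaa was low, at 3.64 CPM within the authors' deposited table, where no read counts are given, so the size of its change is uncertain. Its paralog pparab had a log2 fold change of -0.09 (adjusted p 0.819) at 12.5 CPM within the authors' deposited table. For PPAR delta, pparda and ppardb stood at 0.02 and -0.13 within the authors' deposited table, with adjusted p of 0.977 and 0.715. Whether the paralogs of a pair differ from each other was not tested, since the table has no values per library.

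Of the genes for uptake, binding, activation and uncoupling, ucp3 rose and the others had negative values without a call. Acyl-CoA synthetase genes acsl1a and acsl1b, whose enzymes activate long-chain fatty acids, had log2 fold changes of -0.32 (adjusted p 0.223) and -0.10 (0.802) within the authors' deposited table. The gene fabp3, encoding the fatty acid binding protein of heart and muscle, had a log2 fold change of -0.42 (adjusted p 0.0711) at 644.0 CPM within the authors' deposited table. The fabp3 locus overlaps that of the gene zcchc17 (15.5 CPM) by 8233 bases, so reads may have been shared there too. The mitochondrial carrier gene ucp3 (chromosome 10, 36706163 to 36729623, GRCz10), known in mammals as a PPAR target in muscle, rose 1.61-fold within the authors' deposited table, with a log2 fold change of 0.68 (adjusted p 0.00237) at 32.3 CPM. Its locus overlaps that of ucp2 by 10742 bases in the coordinates of the authors' deposited table. The overlapping gene ucp2 went the other way, with a log2 fold change of -0.94 (adjusted p 0.000156) at 74.1 CPM within the authors' deposited table. The ucp2 locus runs from 36718882 to 36729630, so nearly all of it lies within that of ucp3. The sources used here do not say how reads in the shared stretch were assigned. Both values, and the gene to which each belongs, are therefore uncertain. No row of the authors' deposited table was matched to cd36, a fatty acid uptake receptor gene.

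Around the members, 154 further genes of lipid handling were listed in 6 groups, of which 120 were matched within the authors' deposited table. Of these, 28 were called (23.3%, against 20.1% of all genes), 24 lower and 4 higher, within the authors' deposited table. Of all genes there, 9.22% were called lower and 10.9% higher. The lists were chosen with earlier results of these data known, so their counts and medians are a description only. The fuel switch and fasting list had 10 of 22 genes lower and 1 higher within the authors' deposited table. Over all genes these shares were 9.22% and 10.9%. The list's median log2 fold change was -0.47. Its lower members included pdk2b and pdk2a, whose kinases restrain pyruvate oxidation, klf15, a transcription factor of fasting metabolism, and ucp2. The klf15 value was -2.07, at a low level of 5.07 CPM, within the authors' deposited table. Those of pdk2b and pdk2a were -2.96 and -1.55. Other pdk genes of the list were not called, with pdk4 at -0.25 (adjusted p 0.349), pdk1 at 0.29 (0.457) and pdk3a at -0.09 (0.857) within the authors' deposited table. The gene angptl4, which encodes an inhibitor of lipoprotein lipase, had a log2 fold change of -1.09 (adjusted p 0.000682) within the authors' deposited table. The single higher gene was hmgcs1, of the cholesterol route, at 0.63 within the authors' deposited table.

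Lipid storage and lipolysis had 5 of 12 genes called lower within the authors' deposited table, where 9.22% of all genes were, and 0 higher. The median log2 fold change of this list was -0.59. The lipoprotein lipase gene lpl, which frees fatty acids from circulating triglyceride, fell by 2.06 on the log2 scale within the authors' deposited table (adjusted p 7.52e-16). Both pnpla2, the lipase that opens triglyceride breakdown in the droplet, and g0s2, its inhibitor, were lower, at -0.92 and -1.15 within the authors' deposited table. The lipid droplet genes cidec and plin3 were the others, at -1.37 and -0.67 within the authors' deposited table. The level of cidec was low, at 1.13 CPM. Thus genes of fat release and genes that restrain it were both among the lower ones.

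Other mitochondrial acyl-CoA enzymes had 7 of 25 genes lower and 1 higher within the authors' deposited table, against 9.22% and 10.9% of all genes. Their median log2 fold change was -0.20. Malonyl-CoA inhibits carnitine palmitoyltransferase I; mlycd, which degrades it, had a log2 fold change of -1.19, and acacb, which makes it, one of -0.55 within the authors' deposited table. Also lower were acss1, which activates acetate, at -1.18, and the amino acid and odd-chain genes ivd at -0.71 and mut at -0.72 within the authors' deposited table. The ketone body gene oxct1a was higher at 1.67, at a low level of 0.850 CPM within the authors' deposited table. The thiolase gene acat1, also of ketone body use, was lower at -0.52 (adjusted p 0.0225) and stood at 262.9 CPM.

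In the remaining groups calls were few, against 20.1% of all genes within the authors' deposited table. Peroxisomal lipid oxidation had 1 of 25 genes higher and 0 lower within the authors' deposited table, with a median of 0.13. The higher gene was decr2, a peroxisomal reductase, at 0.97 and a low level of 4.98 CPM. Transport and acyl-CoA synthetases had 1 of 13 genes higher and 1 lower within the authors' deposited table. These were slc27a2a at 1.02 and fabp7a at -0.78, both at low levels, 1.45 and 4.74 CPM. Among receptor partners and regulators 1 of 23 was lower, pparg, the PPAR best known from fat cells, at -1.19 and 1.53 CPM within the authors' deposited table, and 0 were higher.

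**Figure D2:**
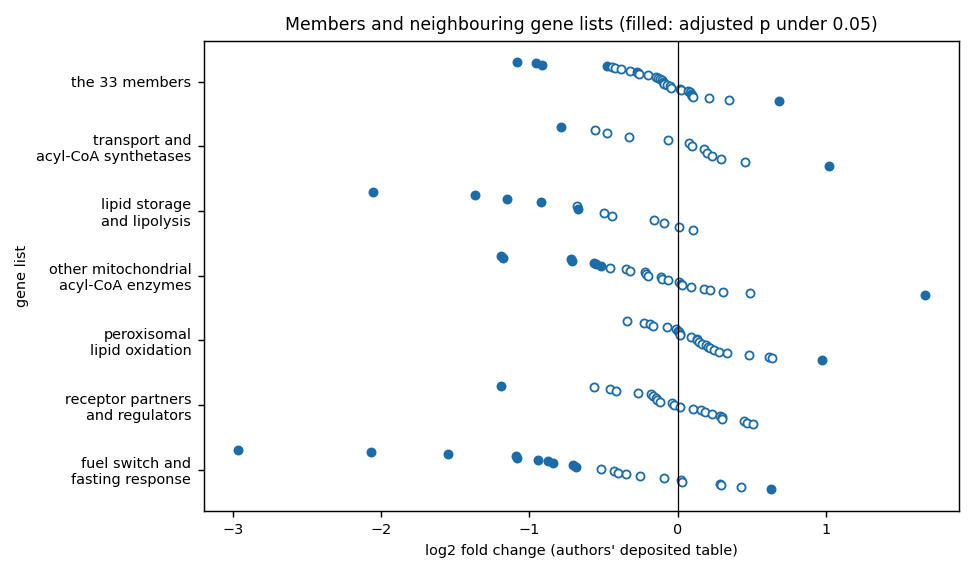
Each point is a gene of the authors' deposited table, placed by its log2 fold change, in a row for the 33 members and for each of the 6 neighbouring lists, and filled where the adjusted p was under 0.05. Filled points lie mostly left of zero in the fuel switch (10 of 11), storage (5 of 5) and mitochondrial acyl-CoA (7 of 8) rows. Of the remaining lists, the peroxisomal row has 1 filled point, right of zero, the transport row 1 on each side and the regulator row 1, left. The lists were chosen with earlier results of these data known.

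Marker lists of cell types held lower calls in unequal shares within the authors' deposited table, where 9.22% of all genes were called lower. Neutrophil markers were lower in 4 of 4, endothelial in 4 of 5, macrophage in 2 of 5, heart muscle in 2 of 8 and erythrocyte in 2 of 5 entries, with 0 higher in each of these lists of the authors' deposited table. Entries are rows, and hbba1 has 2. Every entry of these lists had a negative value, against 49.0% of all genes. Median log2 fold changes were -0.37 for heart muscle (from -1.09 to -0.20), -2.13 for neutrophil, -0.70 for endothelial, -0.50 for macrophage and -0.43 for erythrocyte markers. Lists of other tissues also held lower calls, in 1 of 6 skeletal muscle entries (ckma), 1 of 2 skin genes (krt4), 1 of 2 liver genes (tfa) and 0 of 2 cartilage genes within the authors' deposited table. The skeletal muscle gene myhz1.1 has 2 entries. The level of ckma was 1492 CPM, against 1.02 to 8.75 CPM for the other skeletal muscle entries. Positive values without a call were held by 4 of the 6 skeletal muscle entries, krt5 (0.87), apoa1b (0.41) and both cartilage genes. Adipocyte markers had 1 of 3 genes lower, cebpa at -0.65, and fabp11a stood at 0.10 on the log2 scale within the authors' deposited table. Summed levels were 90472 CPM for heart muscle, 815.3 for endothelium, 716.1 for adipocyte, 464.8 for erythrocyte, 152.2 for macrophage and 11.0 for neutrophil markers within the authors' deposited table. Nearly all of the adipocyte sum was fabp11a, at 707.0 CPM, while cebpa stood at 7.86 and adipoqa at 1.22 CPM. Levels per group cannot be given for that table, and the part of cell composition in the members' values was not tested.

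Levels of the same gene were then set side by side between both forms of the data, whose tissue markers differ. Of 33 members, 28 stood higher within the authors' deposited table than in the mean of the 4 libraries, with a median log2 ratio of 1.56 (2.95-fold). Of 14952 genes with a value in both, 32.3% were higher within the authors' deposited table, and the median log2 ratio was -0.60. The activating enzyme gene acsl1b had the highest ratio of the members, at 1939 CPM within the authors' deposited table and 76.7 CPM in the libraries, a 25.3-fold difference. Next came acadvl, at 1459 CPM within the authors' deposited table against 158.6 CPM, and hadhaa, at 549.4 against 64.6 CPM. The muscle gene cpt1b stood at 122.0 CPM within the authors' deposited table and 19.2 CPM in the libraries.

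The 5 members that were lower within the authors' deposited table than in the libraries were cpt1aa, slc25a20, pparaa, pparda and ppardb. Of these, cpt1aa was at 17.03 CPM within the authors' deposited table and 41.4 CPM in the libraries, and ppardb at 17.1 and 33.9 CPM. Paralogs thus stood on opposite sides of the comparison in the cpt1a pair, where cpt1ab was 4.30-fold higher within the authors' deposited table, and in the PPAR alpha pair, where pparab was 2.84-fold higher within the authors' deposited table. Both sources are scaled to their own totals, which a few abundant genes can shift, and no test between them was made. Their tissue markers also differ, so tissue and processing cannot be told apart in these ratios.

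**Figure D3:**
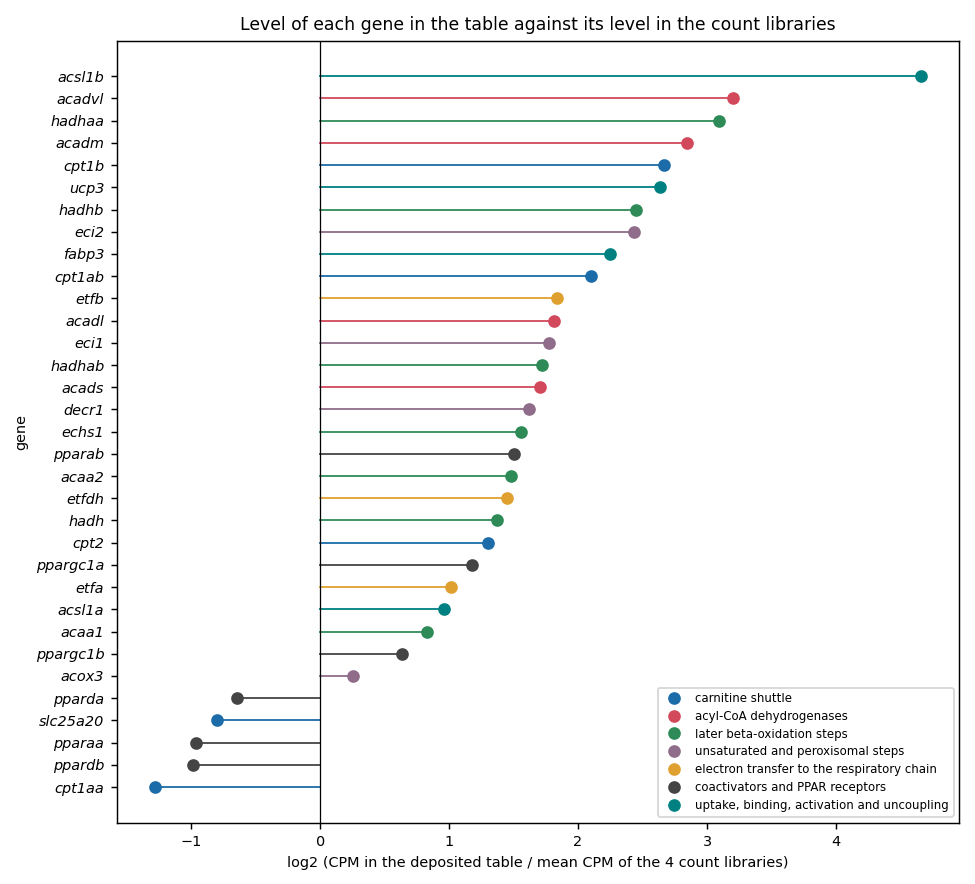
Each point gives the log2 ratio of a member's CPM within the authors' deposited table to its mean CPM over the 4 count libraries, coloured by role and sorted. The 28 points right of zero reach 4.66 for acsl1b, and the 5 left of zero reach -1.28 for cpt1aa. Tissue markers differ between the deposited values and the libraries.

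In the count libraries no member was called between the labels. After Benjamini-Hochberg adjustment, edgeR's quasi-likelihood test called 0 of 34 members and 0 of 22428 genes (0%), with a smallest adjusted p of 1.0. DESeq2 and limma-voom called 0 members as well, and 0 of 34 members had an unadjusted p under 0.05 with any of the 3 tools without a block, where 0.571% of all genes did in the edgeR test. With vehicle 1 blocked with alfacalcidol 2 and vehicle 2 with alfacalcidol 1, a pairing chosen after seeing the data, edgeR called 0 members and 0.0312% of all genes, and 2 members, cpt1ab and ppargc1b, had an unadjusted p under 0.05, as did 3.51% of all genes. With 1 library left out, 1 member had such a p in each of 2 edgeR fits, pparab without vehicle 2 and ucp3 without alfacalcidol 1, and 0 did in the other 2. Log2 fold changes of the members ran from -0.29 for pparab to 0.11 for cpt1ab, with a median of -0.02. Both alfacalcidol libraries lay above both vehicle libraries for 2 members, pparda and ppardb, and below them for 4, slc25a20, acox3, ppargc1a and ppargc1b. Of all genes tested, 10.6% lay above and 10.5% below in that way.

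Members called in the table are given here with each library's level, in CPM of the total count. The level of cpt1b was 14.6 and 23.4 CPM under the vehicle label (1 and 2), and 24.4 and 14.4 CPM under the alfacalcidol label (1 and 2). Vehicle 2 and alfacalcidol 1 were thus the high ones, and the labels overlapped. Its log2 fold change was 0.03 ± 0.29 (SE, n = 2 per group; edgeR adjusted p 1.0).

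The uncoupling gene ucp3 showed the widest spread of the members, at 2.13 and 9.12 CPM in vehicle 1 and 2 and 8.04 and 1.44 CPM in alfacalcidol 1 and 2. Again vehicle 2 and alfacalcidol 1 were high, 6.33-fold from the lowest to the highest library, and the log2 fold change was -0.27 ± 0.84 (SE, n = 2 per group; edgeR adjusted p 1.0). For the receptor gene pparaa the order was turned round, with 9.16 and 5.03 CPM in vehicle 1 and 2 and 4.51 and 9.73 CPM in alfacalcidol 1 and 2. Its log2 fold change was 0.01 ± 0.398 (SE, n = 2 per group; edgeR adjusted p 1.0).

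The gene cpt1ab stood at 79.99 and 99.6 CPM in vehicle 1 and 2 and at 105.7 and 87.5 CPM in alfacalcidol 1 and 2, with a log2 fold change of 0.11 ± 0.14 (SE, n = 2 per group; edgeR adjusted p 1.0). The coactivator gene ppargc1a varied least of the 5, at 34.6 and 33.8 CPM in vehicle 1 and 2 and 33.2 and 30.5 CPM in alfacalcidol 1 and 2. Both alfacalcidol values lay below both vehicle values, with a log2 fold change of -0.10 ± 0.09 (SE, n = 2 per group; edgeR adjusted p 1.0). The uptake receptor gene cd36 was at 8.27 and 8.54 CPM in vehicle and 8.98 and 6.60 CPM in alfacalcidol libraries 1 and 2, which overlap.

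**Figure D4:**
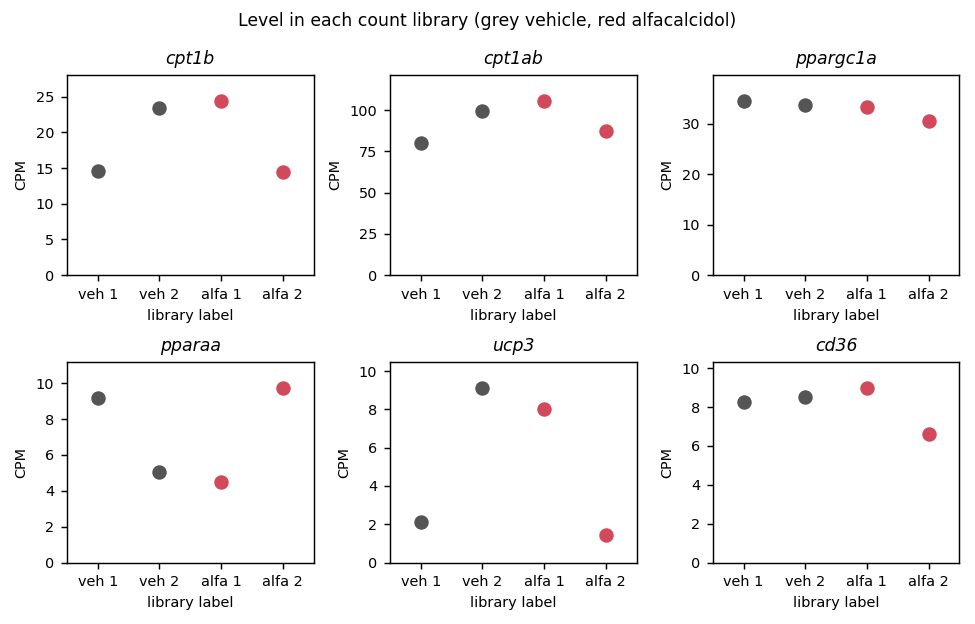
Points give the CPM of 6 members in each of the 4 count libraries, grey for those labelled vehicle and red for alfacalcidol, on axes that start at 0. For cpt1b and ucp3 vehicle 2 and alfacalcidol 1 are the high libraries, and for pparaa they are the low ones.

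Of the other members, pparab, at 6.11 and 3.62 CPM in vehicle 1 and 2 and 3.33 and 4.60 CPM in alfacalcidol 1 and 2, varied 1.84-fold. Next in spread was acsl1b, at 61.5 and 89.5 CPM in vehicle 1 and 2 and 92.6 and 63.0 CPM in alfacalcidol 1 and 2. The remaining 29 of 34 members varied at most 1.39-fold over the 4 libraries. Among them acadvl stood at 139.4 and 179.9 CPM in vehicle 1 and 2 and at 183.5 and 131.8 CPM in alfacalcidol 1 and 2, with the same libraries high as for cpt1b. The binding protein gene fabp3 was nearly level, at 132.1 and 139.4 CPM in vehicle and 137.9 and 132.5 CPM in alfacalcidol 1 and 2.

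Some tissue markers differed between the same libraries, and others were nearly level. The summed level of 3 skin keratin genes was 25669 and 16600 CPM in vehicle 1 and 2 and 16585 and 24680 CPM in alfacalcidol 1 and 2. For the skeletal muscle list the sums were 31846 and 34847 CPM in vehicle and 34843 and 29548 CPM in alfacalcidol 1 and 2, and no marker of either list was at 0. Erythrocyte markers summed to 77.5 and 54.0 CPM in vehicle and 52.3 and 82.6 CPM in alfacalcidol 1 and 2. Nearly all of that sum was alas2 and slc4a1a. The globin gene hbaa1 stood at 0.059 to 0.20 CPM in the libraries, against 69.9 CPM within the authors' deposited table. The 2 hbba1 entries stood at 0 to 0.15 and 0 to 0.095 CPM, against 301.3 and 46.7 CPM. Neutrophil sums were 84.0 and 67.4 CPM in vehicle and 66.2 and 80.3 CPM in alfacalcidol 1 and 2, and liver sums 4755 and 5074 CPM in vehicle and 5198 and 4370 CPM in alfacalcidol 1 and 2. By contrast, heart muscle sums ran from 2623 to 2784 CPM, macrophage from 27.0 to 29.8, cartilage from 6331 to 6637, endothelium from 128.4 to 135.4 and adipocyte from 101.7 to 107.7 over the 4 libraries. The titin gene ttn.2 alone gave 2325 to 2444 CPM of the heart muscle sum, while myl7 stood at 15.0 to 17.1 CPM. That sum also holds a second myh6 gene ID, at 102.0 to 142.1 CPM, which was not matched within the authors' deposited table. The heart muscle gene nppa was not level, at 11.0 and 7.82 CPM in vehicle 1 and 2 and 8.51 and 14.4 CPM in alfacalcidol 1 and 2. The part of these markers in the members' spread was not tested.

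The intervals of the count libraries were set against the values of the table. Without a block, all 34 intervals of the log2 fold change (95%, quasi-likelihood) included zero, with a median half-width of 0.26 and a widest of 1.997, for ucp3. For 8 of 33 members the interval left out the value of the authors' deposited table. The same count over all genes was not made, and the error of the deposited values is not given. Because the libraries' markers go against their heart label, this count cannot show whether the deposited values repeat. For cpt1b the interval ended at -0.67, for ppargc1a at -0.31, for cpt1ab at -0.22 and for pparaa at -0.94 on the side of the lower value within the authors' deposited table. The interval of ucp3, -2.27 to 1.73, held the value of the authors' deposited table. With the pairing chosen after seeing the data as a block, the interval of ucp3 was -0.59 to 0.02. That pairing was taken from the spread of these same libraries, so its narrower interval cannot judge the deposited value.

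**Figure D5:**
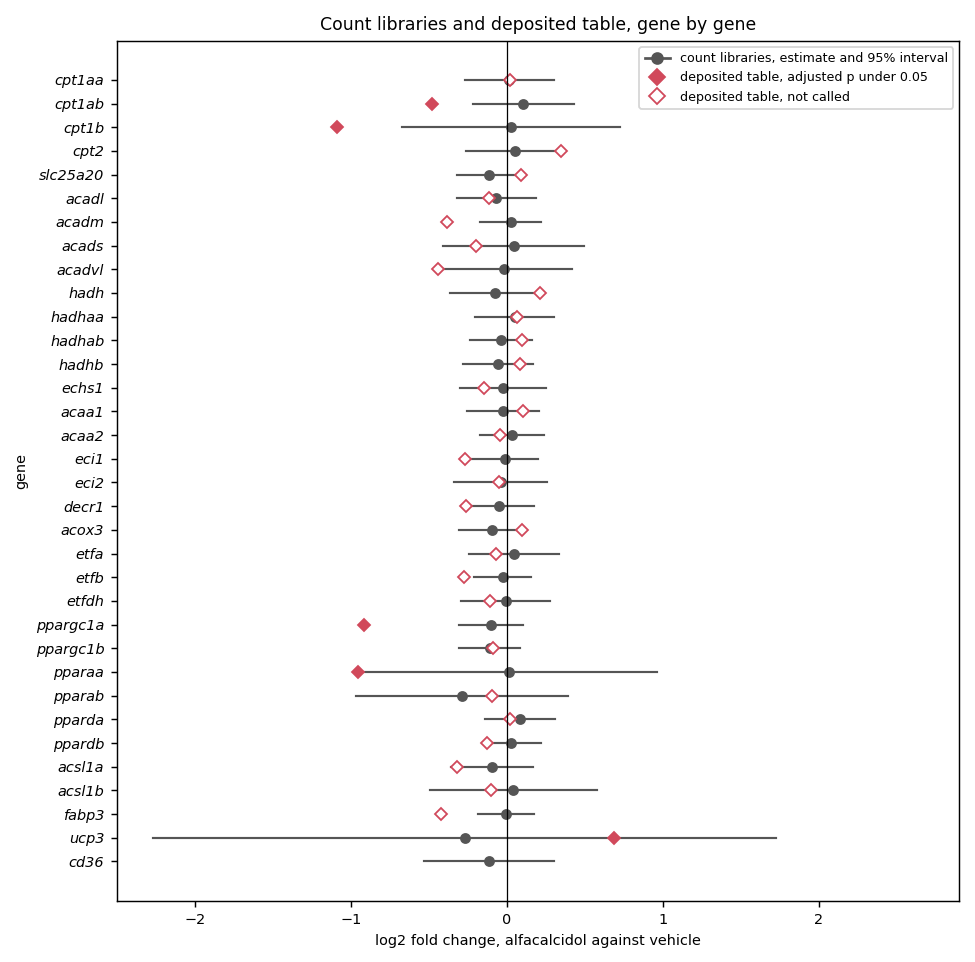
Grey points and lines give the log2 fold change and 95% interval of each of the 34 members in the count libraries, and red diamonds the log2 fold change within the authors' deposited table, filled where called. All 34 grey lines cross zero, and 8 diamonds lie outside their line.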

How the data were processed

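The deposited counts are raw reads per Ensembl gene (31462 genes). The submitters' processing notes name CASAVA, TopHat2, featureCounts and the build GRCz10; for versions, strand setting and shared reads the sources used here give nothing. The log2 fold changes and log2 CPM of 14962 genes are deposited edgeR output of the authors, per the submitters' processing notes, and CPM levels are powers of 2 of the latter. The deposited p-values are unadjusted and adjusted over that table. Its filter is not given; the lowest log2 CPM is -0.63.

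Members were matched by symbol, ignoring case; members and lists were chosen with earlier results of these data known. Named in full are members called in the table, cd36 and, per list, up to 4 called genes. Named after their values were seen were plin3, ivd, acacb, acat1, angptl4, hmgcs1, pdk1, pdk3a and pdk4. The same holds for the marker genes and the members given for their spread or level. For the counts, the quasi-likelihood test of edgeR 4.0.16 (R 4.3.3) was run, in both directions, on 22428 genes kept by filterByExpr, with TMM scaling and group as the sole term, with Benjamini-Hochberg adjustment at 0.05. The script was tested on simulated data. Library levels are CPM of total counts. Alternatives were other scalings and filters, DESeq2 1.42.0, limma-voom (limma 3.58.1), a replicate block, each library left out, a 2-fold minimum and a threshold of 0.1. The gene cd36 was joined through a table of gene names. No sequence or exon length was used, so levels and marker sums are not corrected for gene length. Differences in level between genes are therefore a description only.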

Additional observations from a re-analysis of the deposited data

How the results depend on the processing

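Of the members, 5 were called in the authors' deposited table at an adjusted p of 0.05, 7 at 0.1 (25.4% of all genes) and 1, cpt1b, with a 2-fold minimum added (8.43% of all genes). In the count libraries 0 members were called under every alternative run, with edgeR, DESeq2 and limma-voom and with each library left out. Of 54 log2 fold changes of 6 named members under alternatives that kept all libraries, 51 kept their sign. The exceptions were cpt1b with limma-voom (-0.0026) and pparaa with the replicate number as a block (-0.026) and with the crossed pairing as a block (-0.014). With 1 library left out in turn, the log2 fold change ran from -0.41 to 0.41 for cpt1b, from -0.045 to 0.28 for cpt1ab, from -0.65 to 0.503 for pparaa, from -1.98 to 1.14 for ucp3, from -0.17 to -0.04 for ppargc1a and from -0.35 to 0.0988 for cd36; the lone library of an arm is then assumed to vary like the others. The cause was not tested.

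Replicate numbers did not pair the libraries: deviations of same-numbered libraries from their group means correlated at -0.66 over 13939 genes with 200 or more counts in each library. With that number as a block edgeR called 0 of 22428 genes. The crossed pairing, vehicle 1 with alfacalcidol 2, was added after the data were seen; with it as a block edgeR called 7 genes, 0 of them members. For the authors' deposited table no library was left out, as it has no values per library.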
